A study of Dunaliella tertiolecta UTEX 'LB 999' with 2 samples.

Results

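Transcripts for 4 enzymes of starch metabolism were examined in the green alga Dunaliella tertiolecta, a wall-less marine flagellate, at 8 h and at 4 h after a rise in light. They are the contigs (assembled transcripts) annotated as SBE2 or as the large subunit of ADP-glucose pyrophosphorylase, with those whose protein name contains starch synthase or phosphoglucan, water dikinase. The rule found 4 of the 234 contigs in the authors' deposited lists, which hold the contigs that the authors reported as at least 2-fold apart between the 2 time points. The 8 h and 4 h samples are both cells of strain UTEX LB-999, from chemostat culture at 25 °C in medium with 0.5 M NaCl. Both had grown at 40 µmol photons m-2 s-1 and were taken after the light had been raised to 400 µmol photons m-2 s-1. The comparison is thus of a later with an earlier time in bright light, and no sample from before the shift was analysed here. There was 1 library per time point, so no difference below has a replicate check and no test of the conditions was possible.

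Starch is the glucose polymer that green algae store in the chloroplast. ADP-glucose pyrophosphorylase makes the activated sugar ADP-glucose, starch synthases add its glucose to growing chains, and branching enzymes cut chains and rejoin them as side branches. Breakdown opens with dikinases that put phosphate groups on the granule's glucans and make them accessible to amylases. In Dunaliella, starch is also a carbon source for glycerol, the solute with which these cells balance salt.

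Of the 4 contigs, 1 was higher at 8 h than at 4 h and 3 were lower. The higher contig was SBE2, and those annotated to ADP-glucose formation, chain elongation and glucan phosphorylation were lower. Each step rests on 1 contig. SBE2 was 1 of 10 transcripts at its locus and had 0.344 reads at 4 h. ADP-glucose pyrophosphorylase had 1 read at 8 h, and the fold interval of the dikinase included equal levels. Over all listed contigs 57.3% were higher and 42.7% lower, and 4 contigs are too few to set against those shares. The median log2 ratio of RPKM, 8 h over 4 h, was -1.23 over the 4 contigs and 1.14 over all 234. Since every listed contig is at least 2-fold apart, these medians mostly restate the counts in each direction. RPKM scales reads to the length of the contig and to the reads of the library, so levels of different contigs can be compared. The deposited values correspond to 674129 reads in the 8 h library and 556037 in the 4 h library, of which the 4 contigs held 65.6 and 78.7. Intervals below are exact, at 95%, and cover counting error only. They take no account of the choice of contigs at least 2-fold apart, which favours large folds. An interval that leaves out equal levels is therefore no test of a difference. Each contig is named after its best protein hit in Chlamydomonas reinhardtii, another green alga.

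**Figure D1:**
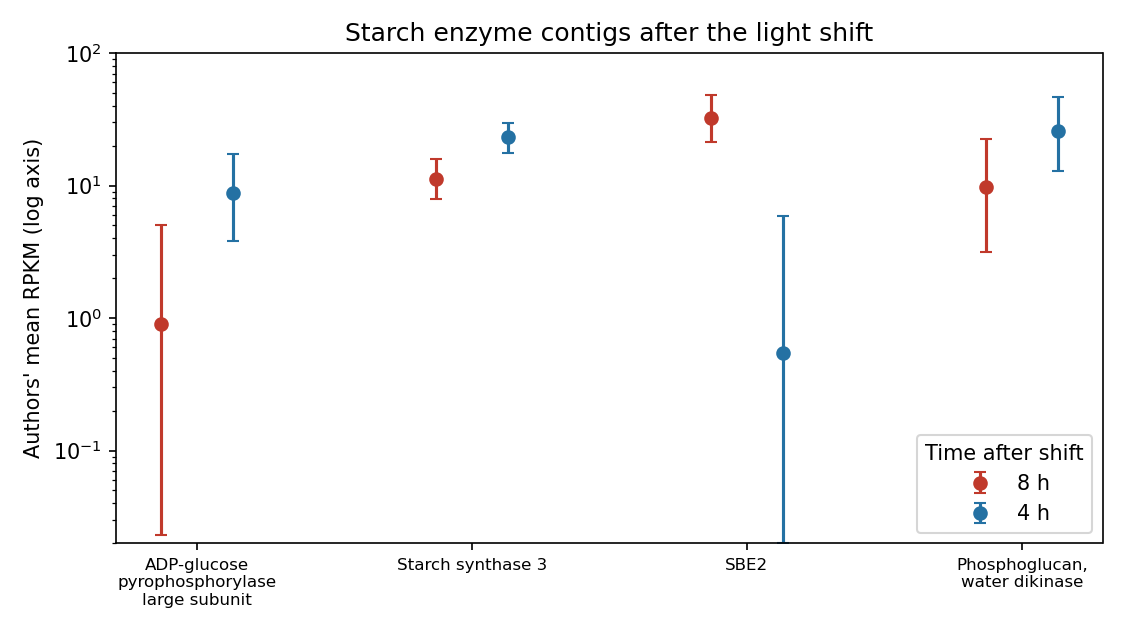
Level of each starch enzyme contig in the 8 h library (red, left) and the 4 h library (blue, right), as the authors' mean RPKM on a log axis. Bars are exact 95% counting intervals of 1 library each, and that of SBE2 at 4 h reaches down to 0. SBE2 is the 1 contig whose red point is above its blue point.

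The first step was represented by the large subunit of ADP-glucose pyrophosphorylase (CHLREDRAFT_115751), the subunit with a mainly regulatory part in plant enzymes. Its contig of 1639 bases matched Cre13.g567950.t1.1 with an E value of 8e-133, and was the single transcript assembled at its locus. The authors' mean was 0.905 RPKM at 8 h (interval 0.0229 to 5.04) and 8.78 RPKM at 4 h (3.79 to 17.3). That was the lowest 8 h level of all 234 listed contigs. It was 9.70-fold lower at 8 h, with an interval of 1.30 to 430, and its fold was the fourth largest among the 100 lower contigs. The wide interval comes from 1 read at 8 h and 8 reads at 4 h, and 1 read of this contig was worth 0.905 RPKM at 8 h and 1.10 RPKM at 4 h. With 1 RPKM added to both levels the contig was 5.13-fold lower.

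Chain elongation was represented by starch synthase 3, a soluble starch synthase of the family that in plants makes long amylopectin chains. Its contig was the longest of the lower list, at 4588 bases, and the E value of its hit to Cre13.g579600.t1.2 was listed as 0. The authors' mean was 11.3 RPKM at 8 h (7.88 to 15.7) and 23.3 RPKM at 4 h (17.6 to 29.8). It was 2.06-fold lower at 8 h (1.32 to 3.20). Counting error is smallest here, since the contig held 34.9 reads at 8 h and 59.4 at 4 h, while its fold was only the 92nd largest of 100. These estimated reads are not whole numbers, as where reads are divided among transcripts, although this contig too was the single transcript of its locus.

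Branching was represented by SBE2, a starch branching enzyme. The authors' mean was 32.2 RPKM at 8 h (21.1 to 48.2) and 0.545 RPKM at 4 h (0 to 5.84), the lowest 4 h level of all 234 listed contigs. In reads, that was 24.7 at 8 h and 0.344 at 4 h. Of the 134 higher contigs, SBE2 was the 1 whose 4 h reads round to 0. The ratio in the authors' deposited table, 59.1, was the largest of the higher list, but its denominator is under 1 read. Set against the 3 reads that a count of 0 allows, or 4.75 RPKM for this contig, SBE2 was at least 6.78-fold higher at 8 h if its 8 h reads are taken as exact. With the counting error of both libraries, the lower limit of the fold was 5.19, and there was no upper limit. With 1 RPKM added to both levels the ratio was 21.5.

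The SBE2 contig also stood apart in the assembly. By its name it was transcript 2 of 10 at its locus, with an assembly confidence of 0.154, while the other 3 starch contigs were single transcripts with a confidence of 1. A confidence this low or lower was given to 4 of the 234 listed contigs, and the median was 1. The contig has 1136 bases and matched Cre10.g444700.t1.1 with an E value of 2e-85. Fractional raw totals were found in 42 of the 101 listed contigs from loci with several transcripts (41.6%) and in 31 of the 133 from single-transcript loci (23.3%). No other listed contig came from the SBE2 locus, and its other transcripts were not analysed here. A higher level of the gene and a different split of its reads among 10 transcripts therefore cannot be told apart.

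Breakdown was represented by a phosphoglucan, water dikinase, an enzyme that in plants phosphorylates glucans already primed by a related dikinase. Its contig was the shortest of the 4, at 767 bases, with an E value of 5e-33 for its hit to Cre02.g091750.t1.1. The authors' mean was 9.67 RPKM at 8 h (3.14 to 22.6) and 25.8 RPKM at 4 h (12.9 to 46.2). It was 2.67-fold lower at 8 h, and the interval of 0.854 to 9.79 included equal levels. The fold rests on 5 reads at 8 h and 11 at 4 h, a pair of counts that 4 contigs of the lower list share. At this depth the reads alone did not tell this 2.67-fold difference from equal levels.

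**Figure D2:**
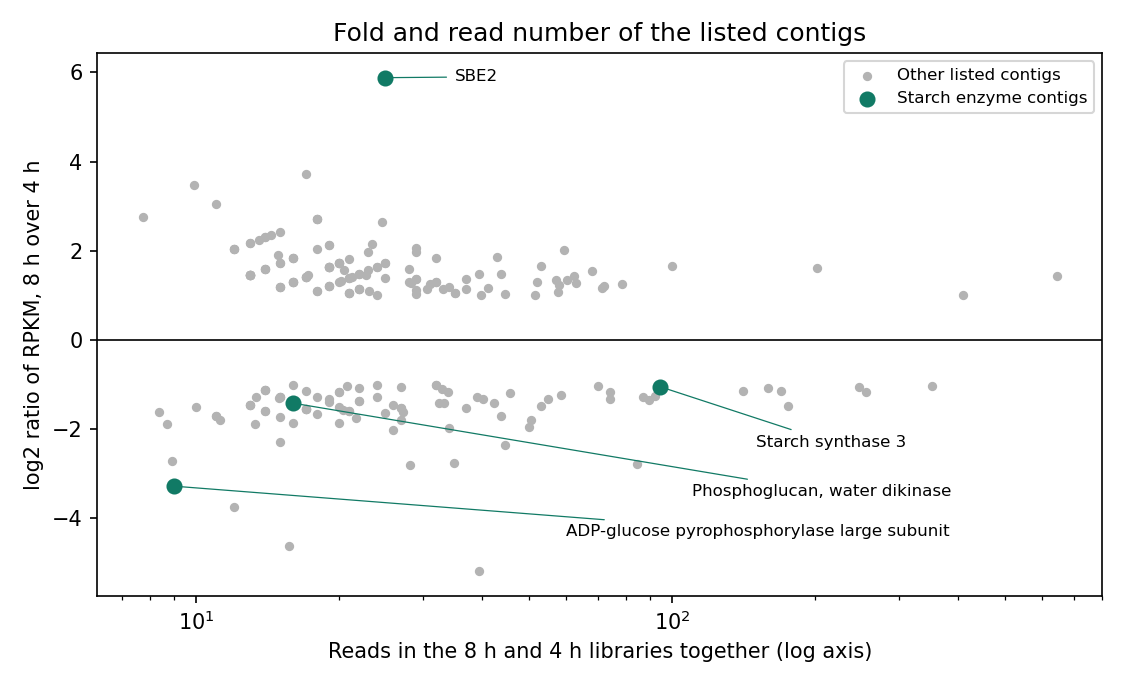
log2 ratio of RPKM, 8 h over 4 h, against the reads of each listed contig in both libraries together on a log axis. Green points are the 4 starch enzyme contigs and grey points the other listed contigs. SBE2 has the largest ratio of all on 25.0 reads, ADP-glucose pyrophosphorylase a large one on 9.00 reads, and starch synthase 3 a small one on 94.3 reads.

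The order by false discovery rate in the authors' deposited table differed from the order of folds. At least 4-fold apart were 2 of the 4 contigs, against 15.4% of all listed contigs. SBE2 was the 1 at least 4-fold higher, against 10.7% of all listed contigs, and ADP-glucose pyrophosphorylase the 1 at least 4-fold lower, against 4.70%. The authors' deposited table gave a false discovery rate under 0.05 to 1 of the 4, against 32.5% of all listed contigs. That was SBE2, at 0.0328, so that 1 of the 4 was higher under this limit, against 18.4% of all listed contigs, and 0 lower, against 14.1%. It was followed in the authors' deposited table by 0.0830 for the dikinase, 0.217 for ADP-glucose pyrophosphorylase and 0.235 for starch synthase 3. Starch synthase 3 thus came last in the authors' deposited table although it had the most reads. For these 4 contigs, the p-values in the authors' deposited table differed by at most 0.0241% from those of a Wald test with RPKM values in the place of Poisson counts. Such a test sees 11.3 and 23.3 RPKM of starch synthase 3 and not the 94.3 reads behind them. For the dikinase it sees more than the reads, 9.67 RPKM for 5 reads at 8 h and 25.8 RPKM for 11 at 4 h. The same holds for SBE2 at 8 h, with 32.2 RPKM for 24.7 reads.

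Summed over the 3 synthesis contigs, the authors' means came to 44.4 RPKM at 8 h and 32.6 RPKM at 4 h, a ratio of 1.36 (approximate 95% interval 0.911 to 2.04, from a normal approximation to the counting error). SBE2 made up 72.5% of the sum at 8 h and 1.67% of it at 4 h. Without SBE2 the direction turned, with 12.2 RPKM at 8 h and 32.0 RPKM at 4 h, a 2.63-fold lower sum. Without starch synthase 3 the ratio was 3.55, and without ADP-glucose pyrophosphorylase it was 1.83.

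Few other listed contigs belonged to steps around starch. No listed contig matched keywords for amylases, debranching enzymes, starch phosphorylase, disproportionating enzyme or maltose, and none matched those for glycerol synthesis. In the same starch keyword list, the term for ADP-glucose matched 1 contig, ADP-glucose pyrophosphorylase, itself 1 of the 4. These counts hold for the lists alone. The keywords for neighbouring carbon metabolism, chosen with earlier results of these data known, matched 5 contigs. All 5 were higher at 8 h, against 57.3% of all listed contigs, a description that such a choice keeps from being a test. The highest level was that of GAP1a, annotated as glyceraldehyde-3-phosphate dehydrogenase of plastid 1, with authors' means of 459 RPKM at 8 h and 169 RPKM at 4 h. GLD2-N, a glucose-6-phosphate dehydrogenase, which opens the oxidative pentose phosphate pathway, had authors' means of 40.1 RPKM at 8 h and 16.5 RPKM at 4 h, 2.43-fold higher (1.01 to 6.89).

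The remaining matches lie below the triose phosphates. A pyruvate kinase contig had authors' means of 23.2 RPKM at 8 h and 8.53 RPKM at 4 h, and PEPC1, a phosphoenolpyruvate carboxylase, had authors' means of 27.3 RPKM at 8 h and 11.4 RPKM at 4 h. A further phosphoenolpyruvate carboxylase contig was 3.09-fold higher on 15 reads at 8 h and 4 at 4 h, with an interval that reached equal levels (0.985 to 12.8). UAP2, a UDP-sugar pyrophosphorylase, lay outside the keywords and was chosen after its values were seen. It was 2.80-fold higher, at authors' means of 26.1 RPKM at 8 h and 9.29 RPKM at 4 h, and its interval also reached equal levels (0.993 to 9.72).

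With only 2 libraries, likeness of pattern reduces to a likeness of 1 ratio. The annotated contigs nearest to ADP-glucose pyrophosphorylase, at a log2 ratio of RPKM of -3.28, were CDD1, a cytidine deaminase, at -3.74 and LHCBM3, an antenna protein of photosystem II, at -2.77. The nearest to starch synthase 3, at -1.04, were the histone contigs HFO26 and HTB26, both also at -1.04. SBE2, at 5.88, had no close neighbour, and the nearest, a nuclear transport factor 2 family contig, was at 3.72, followed by a B-cell receptor-associated 31-like contig at 3.04. The dikinase, at -1.42, shared its ratio with SYP1, a syntaxin, and with a SurE-like phosphatase, which had the same 5 and 11 reads. Several of these ratios rest on few reads, with 1 read at 8 h for CDD1 and 1 at 4 h for each neighbour of SBE2. The fold intervals of HTB26 (0.757 to 5.48 lower at 8 h), SYP1 and the SurE-like phosphatase included equal levels, and those of LHCBM3 and HFO26 did not. These intervals too leave the 2-fold limit of the lists out of account.

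The raw totals in the authors' deposited table include reads from libraries other than those of 8 h and 4 h. Of all raw reads of SBE2, 98.6% lay in the 8 h library and 1.38% in the 4 h library, which left 0.0336% in neither. That was the largest 8 h share of the 134 higher contigs, whose median was 68.4%. SBE2 also had the largest fold of the higher list, and these ranks are not independent. For ADP-glucose pyrophosphorylase, 6.25% lay in the 8 h library and 50.0% in the 4 h library. The 43.7% in neither was the fourth largest such share of the 100 lower contigs, whose median was 11.4%. Starch synthase 3, at 10.6%, and the dikinase, at 11.1%, were near that median.

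**Figure D3:**
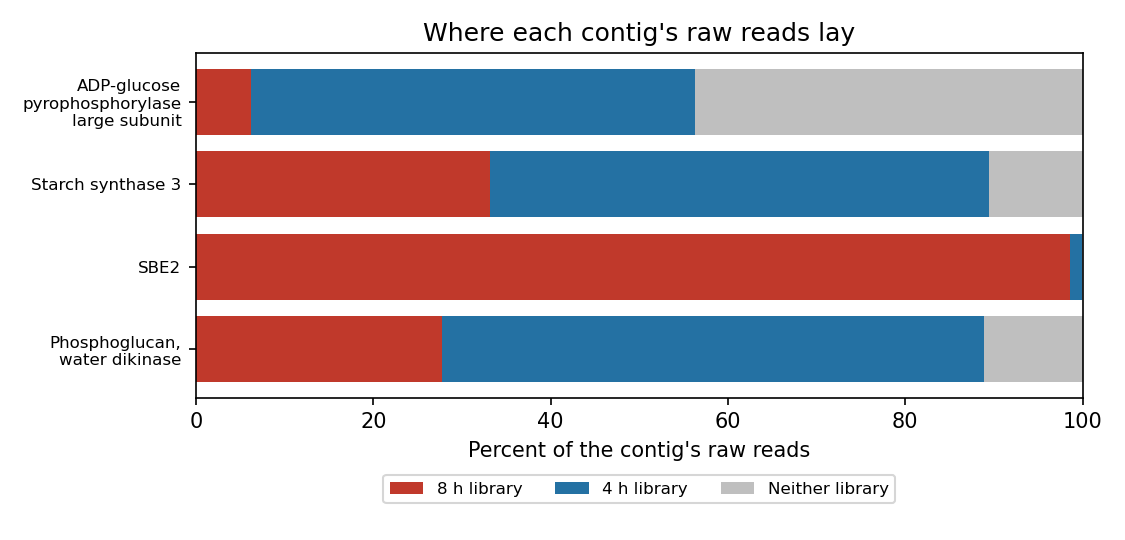
Share of each starch enzyme contig's raw reads, in percent, that lay in the 8 h library (red), the 4 h library (blue) or neither (grey). Nearly the whole SBE2 bar is red, and grey makes up 43.7% of the ADP-glucose pyrophosphorylase bar.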

How the data were processed

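Stranded mRNA libraries, 1 from the 8 h and 1 from the 4 h culture, were prepared per the labels' protocols. Partek is named in the submitters' processing notes, with aligner, assembler and reference not given in the sources used here. Per the file headers, the authors' deposited lists of 134 higher and 100 lower contigs hold means in RPKM, the ratio of 8 h over 4 h, a p-value, a false discovery rate, and raw totals that are estimated counts over all libraries of the authors' model. The columns of means name neither sample, and were assigned to 8 h and 4 h from the contrast cell and the ratio.

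Reads were computed as RPKM times contig length times a constant per library, the median over the list whose raw maximum lies in that library. Fold intervals are Clopper-Pearson intervals of the 8 h share, and level intervals are exact Poisson intervals, both on reads rounded to whole numbers and at 95%. The members, the 5 keyword lists and the alternatives were chosen with earlier results of these data known. Named contigs were the 4 members, the list matches and, per member, the 2 annotated contigs with the nearest log2 ratio in the same list. Computation used scipy 1.17.1 and numpy 2.4.6 under Python 3.11.15, with pandas 2.3.3 for tables and matplotlib 3.10.9 for plots.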

Additional observations from a re-analysis of the deposited data

Results flagged for a closer look

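Reads outside the 2 time points numbered over 3 in 2 of the 4 starch contigs, a limit used for flagging and not a test. They numbered 7.00 for ADP-glucose pyrophosphorylase and 11.1 for starch synthase 3. The dikinase, under the limit, had 2.00 such reads. Over 3 such reads were present in 107 of the 234 listed contigs (45.7%). For ADP-glucose pyrophosphorylase the 7.00 reads came to 23.9 RPKM, a sum over an unknown number of libraries that cannot be set against the authors' means for the 8 h library (0.905 RPKM) and the 4 h library (8.78 RPKM). The libraries that held these reads are not described in the labels used here.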

How the results depend on the processing

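Of 25 alternatives, 21 left their result in the same direction and inside its counting interval or within 1.5 times its count. They included pseudocounts of 1 and 0.1 RPKM for all 4 contigs and reads rounded to whole numbers for 3. For SBE2 rounding gave 0 reads at 4 h and no ratio, and the bound with 3 reads, like the count of lower contigs, was added after the data were seen. Many of the 21 could hardly have come out otherwise. A pseudocount cannot reverse a ratio, and the SBE2 interval has no upper limit. An E value limit of 1e-20 and a match on any annotation column left all 4 contigs in. Leaving SBE2 out turned the summed ratio of the synthesis contigs, 8 h over 4 h, to 0.380, and leaving out starch synthase 3 gave 3.55, by construction of the sum. The 3 lower contigs became 0 with a false discovery rate under 0.05 in the authors' deposited table and 1 at 4-fold or more, while the count of 1 higher contig was kept. No paired analysis was possible because each time point had 1 library. Depth limits the folds of ADP-glucose pyrophosphorylase, on 9.00 reads, of the dikinase, on 16.0 reads, and of SBE2, whose 4 h reads round to 0.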

Other observations

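Reads and RPKM outside the 2 time points together give the size of the libraries behind them, as a mean weighted by RPKM. It came to 178821 reads for ADP-glucose pyrophosphorylase, 194205 for starch synthase 3 and 205487 for the dikinase. Over the 107 listed contigs with more than 3 such reads it ran from 178813 to 241716, with a median of 192125. These sizes lie below those of the 8 h and 4 h libraries.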
